A study of Mus musculus with 6 samples.

Results

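The 39 genes described here encode proteins of meiotic prophase, and they were examined in spermatogonia that had not yet entered meiosis. They were chosen by name for their known roles, by a rule that used no peak value, though with earlier results of these data known. All 39 were found among the 21440 protein-coding genes that could be given a 5′ end in the mm10 (GRCm38) gene table. The assay was ATAC-seq, which marks open chromatin by where Tn5 transposase can insert adapters, on samples enriched for Pnd 5 spermatogonia, 50000 cells per library. Of the 6 libraries, 3 came from S7KO mice (Sirt7-/-, lacking the histone deacetylase SIRT7) and 3 from WT mice, all of the 129S1/Sv strain and 5 days old. The contrast asked whether loss of SIRT7 altered chromatin accessibility. The deletion was not restricted to germ cells, so any somatic testis cells in the S7KO samples lacked SIRT7 too. The cells were enriched by letting somatic cells attach to plates. The study found the majority of cells isolated in this way positive for PLZF, and the measurement that it shows is of WT cells. Replicates carry the numbers 1, 2 and 4 that GEO's titles give them, in either genotype.

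In meiotic prophase, homologous chromosomes are cut by programmed double-strand breaks, pair, and are zipped together by the synaptonemal complex, while some of the breaks are repaired as crossovers. Spermatogonia divide by mitosis, and in the mouse testis the first of them enter meiosis only after the age sampled here, when retinoic acid induces the meiotic programme. Many proteins of this programme, though not all, are little used in mitotic cells. Many promoters of their genes are kept silent in somatic tissues by DNA methylation and by a Polycomb complex that contains the factors E2F6, MGA and MAX.

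Promoter sequences of some of these genes are shown first, with motifs that part of the genes hold. RefSeq (GRCm38.p6) listed a promoter, from 250 bases before to 50 after a transcription start, for 33 of the 39 genes, and the start nearest the gene table end was taken. The capitals mark GCGGGAA, the motif of E2F factors (TTCCCGC where it lies on the opposite strand), CACGTG, the E-box read by MAX partners, and in Prdm9 also CNCCTCAG, which resembles the site reported for the meiotic initiators STRA8 and MEIOSIN. In Prdm9 the TTCCCGC and the CNCCTCAG share 1 base. Each sequence is printed 5′ to 3′ in the direction of transcription. The first 4 genes below are among the 6 that hold both GCGGGAA and CACGTG, and Prdm9 had one of the strongest peaks of the 39 genes. The Rad21l sequence, which has no capitals, lies before a listed start that no peak covered.
Hormad1, chr3:95559562-95559676, plus strand: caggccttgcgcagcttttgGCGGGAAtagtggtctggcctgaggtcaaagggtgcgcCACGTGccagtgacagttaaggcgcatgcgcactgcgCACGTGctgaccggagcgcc
Stag3, chr5:138280319-138280512, plus strand: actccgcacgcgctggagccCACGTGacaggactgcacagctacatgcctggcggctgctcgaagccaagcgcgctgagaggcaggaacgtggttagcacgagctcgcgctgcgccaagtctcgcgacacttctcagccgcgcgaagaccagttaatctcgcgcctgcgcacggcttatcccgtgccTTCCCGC
Sycp3, chr10:88459420-88459586, plus strand: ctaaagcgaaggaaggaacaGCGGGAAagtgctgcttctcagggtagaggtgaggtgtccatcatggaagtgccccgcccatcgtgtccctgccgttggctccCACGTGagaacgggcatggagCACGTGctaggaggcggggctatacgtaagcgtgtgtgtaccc
Tex12, chr9:50561269-50561433, minus strand: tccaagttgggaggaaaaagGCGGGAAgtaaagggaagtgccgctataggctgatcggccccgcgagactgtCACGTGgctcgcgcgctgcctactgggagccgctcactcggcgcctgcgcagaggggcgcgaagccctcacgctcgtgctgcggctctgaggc
Prdm9, chr17:15564355-15564421, minus strand: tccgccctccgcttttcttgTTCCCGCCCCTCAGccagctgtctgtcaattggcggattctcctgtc
Rad21l, chr2:151668534-151668653, minus strand: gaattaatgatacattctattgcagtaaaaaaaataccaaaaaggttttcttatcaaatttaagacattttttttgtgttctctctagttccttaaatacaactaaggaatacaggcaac

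GCGGGAA was found in the promoters of 12 of the 33 genes (36.4%), read on both strands, against 6.01% of all 17492 protein-coding promoters and 8.88% of the 11177 promoters whose start was covered by a peak in all 6 libraries. The 12 genes were Hormad1, Hsf2bp, Meioc, Msh5, Prdm9, Rec114, Rnf212, Smc1b, Spata22, Stag3, Sycp3 and Tex12. CACGTG was found in 8 of the 33 (24.2%), namely Brdt, Hormad1, Rec114, Rnf212, Stag3, Sycp1, Sycp3 and Tex12, against 7.91% of all promoters and 10.5% of the covered ones. Both motifs stood together in Hormad1, Rec114, Rnf212, Stag3, Sycp3 and Tex12, which is 18.2% of the 33, whereas 104 of all promoters held both (0.595%) and 0.904% of the covered ones did. Among the 28 promoters of genes used in haploid spermatids, 3 held GCGGGAA and 0 held CACGTG.

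CNCCTCAG was found in 6 of the 33 promoters (18.2%), those of Hfm1, Hormad2, Msh5, Prdm9, Sycp1 and Tex12, against 8.57% of all promoters and 9.35% of the covered ones. The cAMP response element TGACGTCA, the site of the spermatid activator CREM, was found in 0 of the 33 in 2.33% of all promoters and in 3.28% of the covered ones. The TATA box sequence TATAAA was found in 1, that of Syce3, against 13.3% of all, 6.75% of the covered ones and 1 of the 28 spermatid promoters. Every one of these motif matches lay inside a peak in all 6 libraries. This was nearly fixed in advance, because matches were sought only close to the listed start. A peak covered that start in all 6 libraries at every gene of the 33 but Rad21l. The median promoter of the 33 held 19 CpG dinucleotides (interquartile range 14 to 24). The median was 13 over all promoters, 21 over covered ones, 2 over those covered in no library and 6 over the spermatid promoters. A match of letters is a description of the sequence and does not show that a factor bound there. The differences between the lists were not tested.

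The lists held between 105754 and 133695 peaks, with the fewest in WT replicate 2, whose peaks covered 81.5 Mb against 100.1 to 107.7 Mb in the other libraries. The number of reads behind a list is not given in it, so depth is unknown. A peak was present at the 5′ end of Sirt7 itself in all 6 libraries, which does not test the genotype labels. Of the markers fixed for cell types, all 10 of spermatogonia (Zbtb16, which encodes PLZF, Gfra1, Ddx4 and others) had a promoter peak in all 6 libraries. So did 5 of 6 Sertoli cell markers, with Rhox5 as the exception, all 4 peritubular myoid markers and 2 of 5 Leydig cell markers, the others being Hsd3b1 and Insl3 with no peak within 1 kb in any library and Star with none in WT replicate 2. Somatic cells were therefore not shown to be absent, their share was not measured, and in bulk samples a site open in few cells cannot be told apart from one partly open in many.

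Nearly all meiotic prophase genes were accessible at their promoters before meiosis. A peak lay within 1 kb of the 5′ end in 37, 37 and 38 of the 39 genes in S7KO replicates 1, 2 and 4, and in 37, 37 and 38 in WT, a mean of 37.3 ± 0.577 in each genotype (SD, n = 3). The genotypes were the same in this count, a difference of 0 genes. The peak was present in all 6 libraries at 37 genes (94.9%), against 68.2% of all 21440 protein-coding genes. Majin was the 1 gene with none in any library, a state found at 27.7% of all genes. Within 3 kb, all 39 had a peak in all 6 libraries, against 74% of all genes. The peak covered the 5′ end itself in all 6 libraries at 33 of the genes, against 59.7% of all.

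**Figure D1:**
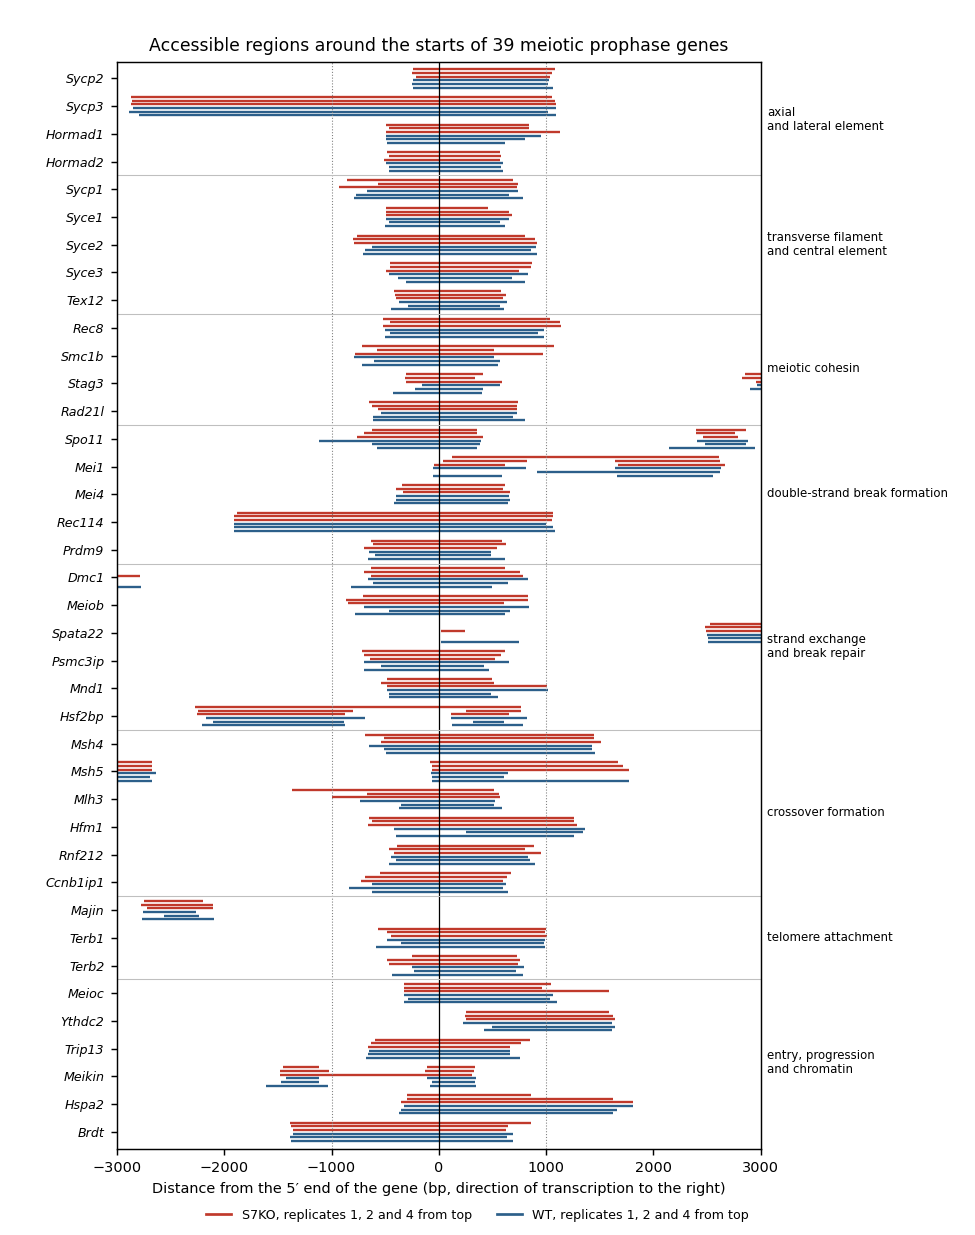
Peaks within 3 kb of the 5′ end of the 39 genes, with the distance in bp along the direction of transcription on the x axis and 1 row per gene. Each bar is a peak, red for the 3 S7KO and blue for the 3 WT libraries. In all 6 libraries a bar lies within 1 kb of the zero line at 37 genes, while Majin has bars only upstream, between 2098 and 2773 bp from the line.

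A further set of meiosis genes stood between these genes and the average gene. Of 30 genes named for this set, 25 were found in the gene table by their symbol. Of these 25, 21 (84%) had a promoter peak in all 6 libraries, Stra8, Tex14 and Exo1 among them. Aurkc, Ccna1, Rnf212b and Shoc1 had none within 1 kb in any library. The nearest peak lay 1116 to 1141 bp away at Rnf212b and 1094 to 1759 bp away at Ccna1. Within 3 kb, 23 of the 25 had a peak in all 6 libraries. Of 32 genes used in haploid spermatids, 15 (46.9%) had a peak in all 6 libraries and 16 (50%) in none, the latter including the protamine genes Prm1, Prm2 and Prm3, the transition protein gene Tnp2 and the sperm tail gene Akap4. Smcp had a peak in 1 library. The share of the 39 genes with a peak within 1 kb thus lay above that of the spermatid genes in each of the 6 libraries, at 94.9% to 97.4% against 46.9% to 50%. Within 3 kb, 21 of the 32 spermatid genes had a peak in all 6 libraries. Their share per library was then 68.8% to 78.1%, close to the 74.9% to 76.7% of all protein-coding genes. These lists were chosen with earlier results of these data known, and the differences between them were not tested.

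**Figure D2:**
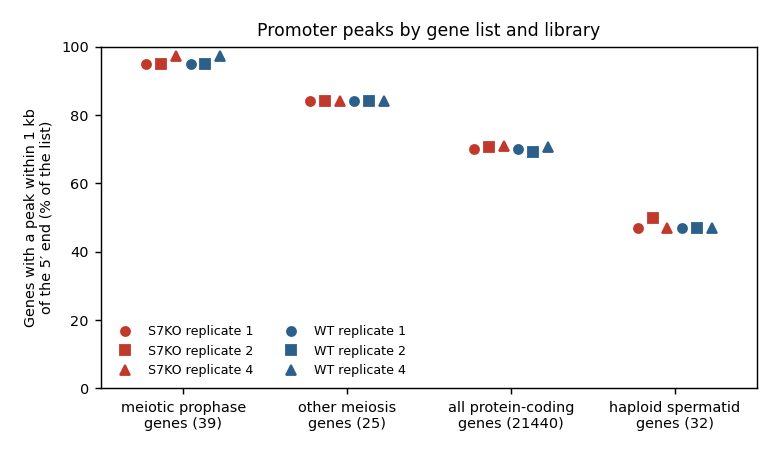
Percent of the genes of each list with a peak within 1 kb of the 5′ end, by library, with the number of genes in parentheses. Red symbols are S7KO and blue symbols WT, with circle, square and triangle for replicates 1, 2 and 4. The meiotic prophase genes lie at 94.9% to 97.4%, all protein-coding genes at 69.1% to 70.8%, and the genotypes lie side by side in every list.

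The promoter peaks of the 37 genes were of middling size and strength. Their median width was 1308 bp (interquartile range 1166 to 1482.5 bp), against 1430 bp over the 14613 protein-coding genes with a promoter peak in all 6 libraries, and 24 of the 37 lay below that median. Strength was read as the rank of the peak by −log10 q within its own list, where 0% is the strongest and 100% the weakest. The median rank of the 37 genes, averaged over libraries, was 12.9%, against 7.88% for all 14613 genes, 7.94% for the other meiosis genes and 14.7% for the spermatid genes that had a peak. At 26 of the 37 genes the peak was weaker than the median of all genes. These differences were not tested. The ranks ran from 0.206% at Prdm9 to 63.7% at Mei1, so that a promoter peak in every library did not mean a strong one.

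**Figure D3:**
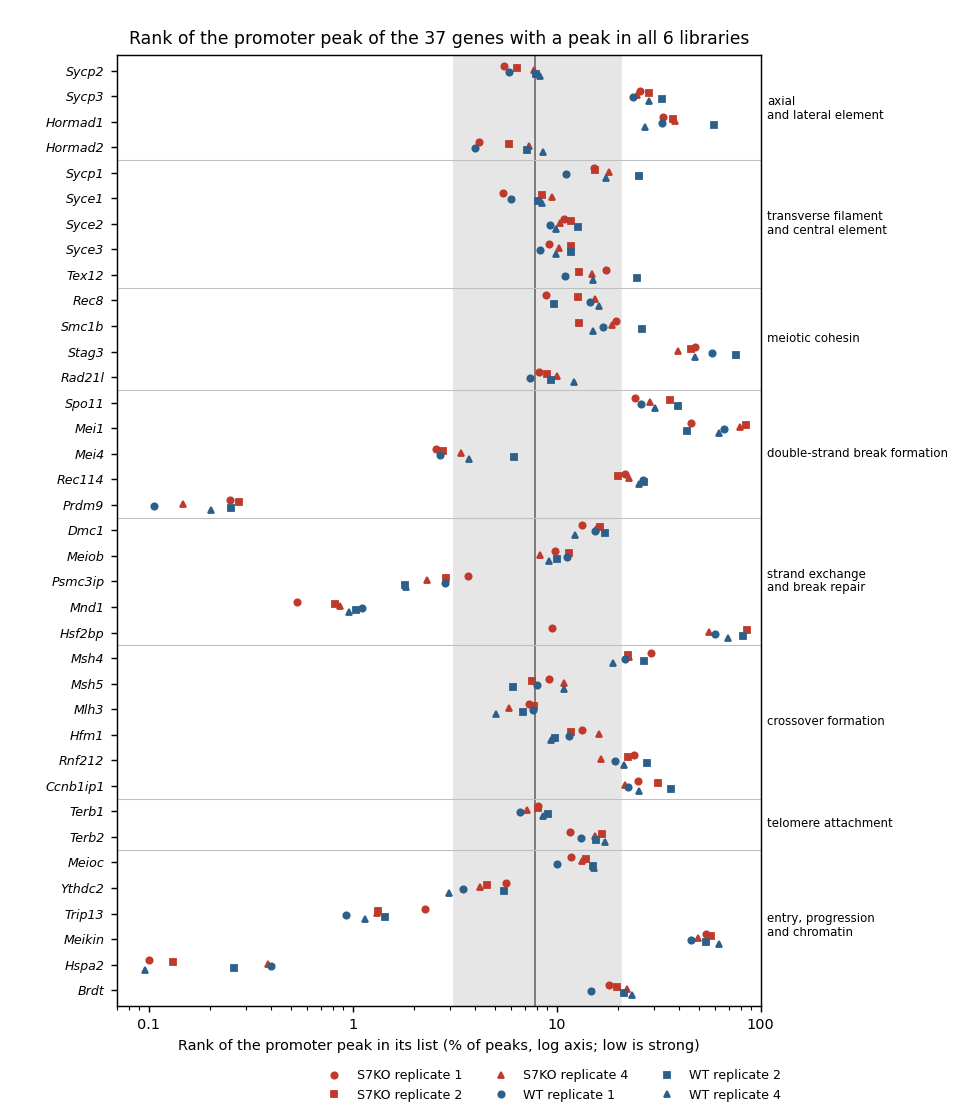
Rank of the promoter peak in its own list, in percent of peaks on a log axis where low is strong, for the 37 genes with a peak in all 6 libraries. Symbols are libraries, red for S7KO and blue for WT, the grey line is the median of all protein-coding genes (7.88%) and the band their interquartile range (3.16% to 20.6%). Prdm9, Hspa2, Mnd1 and Trip13 lie left of the band in all 6 libraries. Stag3, Mei1, Meikin, Sycp3, Hormad1, Spo11 and Ccnb1ip1 lie right of it in all 6 libraries.

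The genes of the chromosome axis and the synaptonemal complex were all accessible at the promoter. Sycp3, which encodes the lateral element protein used to stage spermatocytes, had the widest promoter peak of the 39 genes. It measured 3922, 3944 and 3957 bp in S7KO replicates 1, 2 and 4, and 3945, 3912 and 3886 bp in WT. It was of nearly the same width in every library, reached 2794 to 2890 bp upstream of the start, and ranked between 23.6% and 32.8%. Its axial partner Sycp2 had a peak of 1250 to 1320 bp, ranked 5.54% to 8.31%. Hormad1 and Hormad2, whose products mark unsynapsed axes, differed in strength, with ranks of 27.0% to 58.8% for Hormad1 and 3.98% to 8.55% for Hormad2. The weakest Hormad1 value was that of WT replicate 2.

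Sycp1, which encodes the transverse filament, and the central element genes Syce1, Syce2, Syce3 and Tex12 were close to each other in strength. Their mean ranks over libraries spanned 7.65% (Syce1) to 17.1% (Sycp1), and all 5 peaks covered the start in every library. Tex12 had one of the 5 narrowest peaks, at 996, 1034 and 996 bp in S7KO and 1007, 862 and 1053 bp in WT. Its WT replicate 2 value was the lowest, and the genotypes overlapped.

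The meiotic cohesin genes Rec8 and Rad21l (kleisins), Smc1b and Stag3 were also accessible in all 6 libraries. Stag3 depended on which start was read. At the 5′ end of the gene table its peak was 726, 655 and 900 bp wide in S7KO and 726, 630 and 837 bp in WT, the narrowest of the 37 after Meikin, and ranked 39.6% to 75.5%. At the start listed by RefSeq, 7995 bp inside the gene (chromosome 5, position 138280509, plus strand), a separate peak of 982 to 1050 bp covered the start in all 6 libraries and ranked 1.98% and 2.67% in S7KO replicates 2 and 4 and 1.98%, 1.91% and 3.28% in WT, with S7KO replicate 1 the strongest. The stronger peak was therefore the one at the RefSeq start, which holds the Stag3 sequence printed above. Rad21l showed the reverse. Its gene table end was covered in every library by a peak of 1269 to 1420 bp ranked 7.42% to 12.2%, whereas the RefSeq start 2089 bp inside the gene lay 1284 to 1401 bp from the nearest peak, and the promoter sequence at that start held 2 CpG dinucleotides and 29% G and C.

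The genes for double-strand break formation spanned the whole range of strength. Prdm9, which encodes the histone methyltransferase that places the breaks, had one of the strongest peaks of all. Its rank was 0.250%, 0.277% and 0.148% in S7KO and 0.107%, 0.253% and 0.203% in WT, and its width 1221, 1242 and 1239 bp in S7KO and 1134, 1083 and 1275 bp in WT. Every library placed it far up its list, and the genotypes overlapped in both measures. Mei4, needed for break formation, ranked 2.56% to 6.22%. Spo11, which encodes the enzyme that cuts the DNA, had a peak at its start in every library but ranked 24.1% to 39.2%.

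Rec114, a partner of MEI4, had the next widest peak after Sycp3, at 2950, 2976 and 2970 bp in S7KO and 2906, 2973 and 2996 bp in WT. That peak also held the start of Hcn4, an ion channel gene, so it cannot be assigned to Rec114 alone. The start that RefSeq lists for Rec114 lies 81147 bp inside the gene table interval and was covered by a separate peak of 1013 to 1182 bp in all 6 libraries. At the gene table end, Mei1 was the weakest of the 37 genes. Its ranks were 45.4%, 84.5% and 79.8% in S7KO and 66.3%, 43.5% and 62.9% in WT, with widths from 638 to 2495 bp. The nearest peak was not the same one in every library. In S7KO replicate 1 it was a single peak from 122 to 2616 bp inside the gene, and in WT replicate 2 one from 916 to 2626 bp. The other libraries had a short peak close to the end and a separate one farther in. The RefSeq start of Mei1, 12402 bp inside, was likewise covered in all 6 libraries, with ranks of 32.3% to 61.1%.

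Among the genes of strand exchange, the recombinase gene Dmc1 had a peak of 1247 to 1491 bp that covered its start in every library, ranked 12.4% to 17.4%. The genes of the DMC1 partners, Psmc3ip (HOP2) and Mnd1, had stronger peaks, with mean ranks of 2.56% and 0.890%. Meiob, whose product binds single-stranded DNA together with SPATA22, ranked 8.33% to 11.5%. Hsf2bp, whose product brings BRCA2 to meiotic breaks, was covered at its gene table end in 1 library only and had peaks beside it in the others, with widths of 3040, 516 and 545 bp in S7KO and 705, 287 and 664 bp in WT. The high S7KO replicate 1 value was a single peak that ran on to 2276 bp upstream, where the other libraries had a peak of their own. A RefSeq start of Hsf2bp, 387 bp inside, had a peak within 1 kb in all 6 libraries.

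Spata22 was the 1 gene with a peak within 1 kb in some libraries only. The nearest peak lay 2532, 2486 and 18 bp from the gene table end in S7KO and 2501, 2508 and 25 bp in WT. Replicate 4 of either genotype, the library of each genotype with the most peaks, held a further peak close to the end that the other libraries lacked. The start that RefSeq lists, 3181 bp inside the gene, was covered in all 6 libraries, by a peak of 1361, 1343 and 1446 bp in S7KO and of 1452, 1300 and 1348 bp in WT. With RefSeq starts for the 33 genes that had one and gene table ends for the others, a choice made after the data were seen, 37 of the 39 genes again had a promoter peak in all 6 libraries. Over all protein-coding genes the share under this choice was 70.6%. Rad21l, at its RefSeq start, and Majin, at its gene table end, had none, against 25.7% of all genes.

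The crossover genes Msh4 and Msh5 (a MutS pair), Mlh3 (a MutL homologue), Hfm1 (a helicase) and Rnf212 and Ccnb1ip1 (ligases of the crossover sites) all had promoter peaks in every library, with mean ranks of 6.76% to 27.1%. Msh4 had one of the widest peaks, at 2132, 1953 and 2048 bp in S7KO and 2079, 1940 and 1951 bp in WT. The Msh5 peak varied in length. It was 1759, 1788 and 1840 bp wide in S7KO and 721, 679 and 1838 bp in WT, so that it was short in WT replicates 1 and 2 and long in WT replicate 4, which lay within the S7KO range. The long form ran 1675 to 1773 bp into the gene and the short form 612 to 646 bp, while the upstream edge stayed within 64 to 83 bp of the 5′ end.

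Of the genes for telomere attachment, whose products tether chromosome ends to the nuclear envelope, Terb1 and Terb2 had promoter peaks with mean ranks of 7.96% and 14.9%. The Terb2 peak also held the start of Patl2. Majin was the exception. Its nearest peak lay 2195, 2103 and 2108 bp upstream in S7KO and 2267, 2238 and 2098 bp upstream in WT, and no peak overlapped its gene body in any library. RefSeq's promoter table gave no start for Majin, so its end rests on the gene table.

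The genes of meiotic entry and progression held both strong and weak peaks. Hspa2, which encodes a chaperone abundant in spermatocytes, ranked between 0.0958% (WT replicate 4) and 0.396% (WT replicate 1), with widths of 1161, 1918 and 2162 bp in S7KO and 2135, 2017 and 1995 bp in WT. Only the S7KO replicate 1 peak was short, and the ranks of the genotypes overlapped. Trip13, an ATPase of the synapsis checkpoint, ranked 0.930% to 2.27%, in a peak that also held the start of Brd9. Meioc and Ythdc2, an RNA-binding pair needed to enter meiosis, had mean ranks of 13.2% and 4.40%, and the Ythdc2 peak began 228 to 501 bp inside the gene. Brdt, a testis bromodomain protein, had a wide peak of 2248, 2020 and 1990 bp in S7KO and 2056, 2026 and 2075 bp in WT.

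Meikin, whose product protects centromeric cohesion at the first division, had the narrowest promoter peak, at 454, 460 and 1795 bp in S7KO and 464, 397 and 431 bp in WT. The S7KO replicate 4 value was the outlying one, a peak that also spanned the region from 1481 bp upstream. Meikin ranked 45.7% to 62.3%. Over the 37 genes the widest of the 6 peaks was at the median 1.24 times the narrowest. It was more than 2 times the narrowest at 5 genes (Mei1, Hsf2bp, Meikin, Msh5 and Mlh3), a limit set after the values were seen. Neither value was computed over all protein-coding genes, so whether such variation is usual was not tested.

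A peak that also held the start of another protein-coding gene was found at 4 of the 37 (10.8%), Rec114, Terb2 and Trip13 as above and Smc1b, which shared its peak with Ribc2, against 16.8% of all genes with a promoter peak in all 6 libraries.

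Loss of SIRT7 was then compared gene by gene. None of the 39 genes had a promoter peak in all 3 S7KO libraries and in 0 of the WT libraries, a pattern seen at 7 of all genes (0.0326%), and none had the opposite pattern, which 0% of all genes showed. These patterns cannot pass a test gene by gene with 3 libraries each. A test was possible on peak width, fitted with limma as log2 width centred on the median of each library, over all 14613 genes with a promoter peak in every library and with Benjamini-Hochberg adjustment. It called 11 genes wider in S7KO (0.0753%) and 3 narrower (0.0205%), with 3.39% of all genes at an unadjusted p below 0.05. It called 0 of the 37 meiotic prophase genes, of which 2 had an unadjusted p below 0.05, and their lowest adjusted p was 0.967. The p-values measure the spread between these libraries. With 3 libraries each, 0 calls do not show that the widths were equal. Width is the extent of a peak, and the signal inside the peaks was not tested. The study describes its ATAC-seq replicates as independent and, for its ChIP-seq, each replicate as cells of a different mouse, while the labels of these libraries name no mice.

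Of the 37 genes, 20 had a wider and 17 a narrower mean in S7KO after centring, with a median log2 difference of 0.01, while 5950 of all genes were wider and 8663 narrower, with a median of -0.02. Without centring the split was 31 wider and 6 narrower among the 37, and 9977 wider and 4636 narrower among all genes. The 2 with an unadjusted p below 0.05 moved in opposite directions. Mlh3 was wider in S7KO by 0.55 (SE 0.18) on the log2 scale, with widths of 1886, 1234 and 1567 bp in S7KO and 1259, 875 and 962 bp in WT. Mei4 was narrower, at -0.15 (SE 0.052), with 958, 998 and 992 bp in S7KO and 1056, 1066 and 1061 bp in WT. For both the adjusted p in limma's test was 0.967. The Mlh3 genotypes overlapped and those of Mei4 did not.

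Of the 37 genes, Msh5 had the largest fitted difference, 0.86 (SE 0.39), also with an adjusted p of 0.967 in limma's test. This value depended on WT replicate 4, the WT library with the long form of the peak. Without it the difference was 1.31 (SE 0.049) and the adjusted p 0.00572, while with any other single library left out Msh5 was not called.

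**Figure D4:**
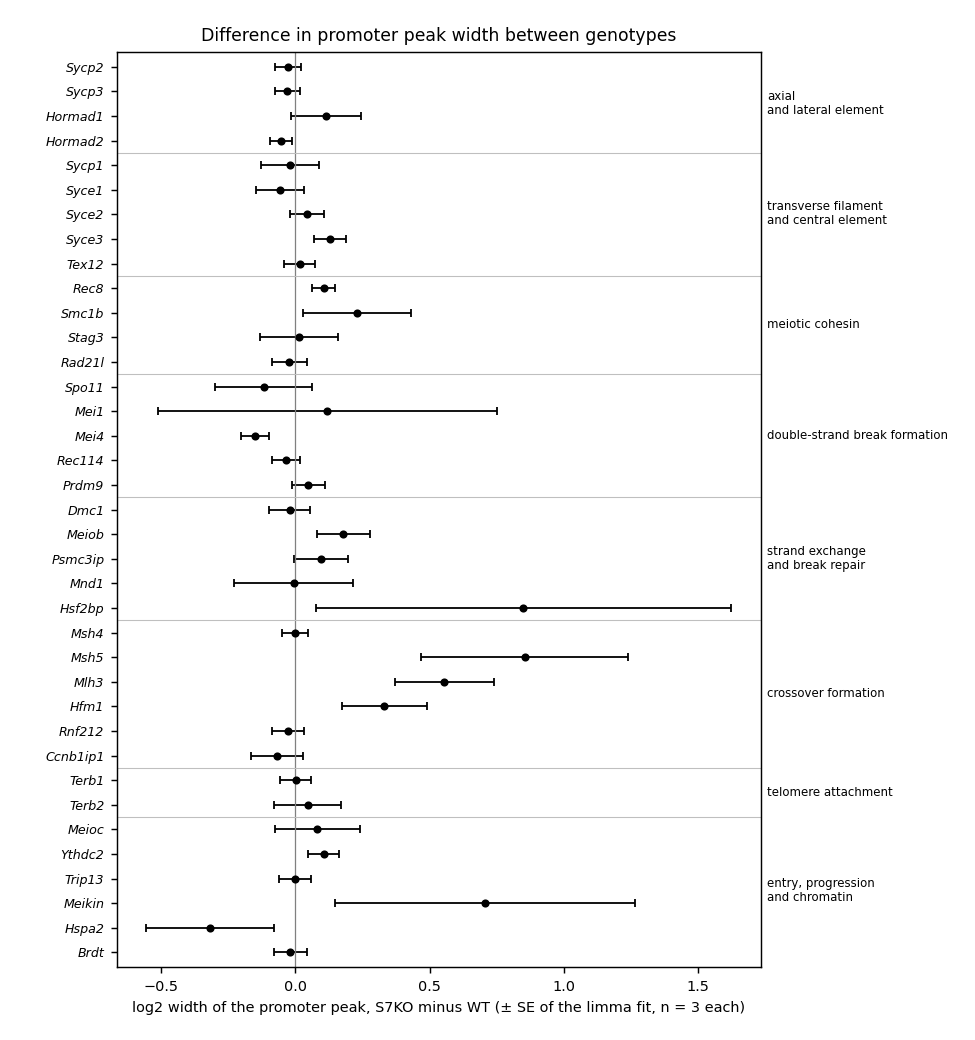
Difference in log2 width of the promoter peak, S7KO minus WT, for the 37 genes with a promoter peak in all 6 libraries. Points are the fitted differences and bars their standard errors from the limma fit with 3 libraries per genotype. Most genes lie near 0, and the genes far to the right, Msh5 at 0.86 and Hsf2bp at 0.85, have wide errors.

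Genotypes that did not overlap were few. The peak was wider in every S7KO than in every WT library at Hfm1 and Rec8, 2 of the 37 genes, against 6.86% of all genes, and narrower at Mei4 alone, against 1.66%. Hfm1 measured 1906, 1886 and 1947 bp in S7KO and 1785, 1089 and 1667 bp in WT, a log2 difference of 0.33 (SE 0.16), and Rec8 1555, 1585 and 1657 bp in S7KO and 1480, 1378 and 1480 bp in WT, a difference of 0.11 (SE 0.043). Neither passed the test. WT replicate 2, the library with the fewest peaks, held the narrowest value at both genes, and without it the Hfm1 difference was 0.15.

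By percent rank, the peak stood higher in the list in every S7KO library at Mnd1, Rec114 and Stag3, against 5.13% of all genes. The Mnd1 ranks were 0.535%, 0.821% and 0.872% in S7KO and 1.11%, 1.04% and 0.960% in WT. The Rec114 ranks were 21.7%, 19.9% and 22.6% in S7KO and 26.4%, 26.8% and 25.4% in WT, for the peak that also held the start of Hcn4. At the start that RefSeq lists for Rec114 the genotypes overlapped, at 30.8%, 21.7% and 19.8% in S7KO and 16.6%, 25.4% and 24.2% in WT. The Stag3 ranks were those of the weak gene table end, at 47.6%, 45.8% and 39.6% in S7KO and 57.6%, 75.5% and 47.8% in WT, and at its RefSeq start the genotypes overlapped. The peak stood lower in every S7KO library at Hfm1, against 1.25% of all genes, with ranks of 13.3%, 11.8% and 16.2% in S7KO and 11.5%, 9.80% and 9.38% in WT. These percent ranks come from lists of unequal length and received no test. With the rank counted instead as a position from the top of the list, a choice made after the data were seen, the genotypes overlapped at Mnd1 and Rec114. Stag3 was then the 1 gene nearer the top in every S7KO library, against 2.92% of all genes, and Hfm1, Msh4 and Trip13 were the 3 farther from it, against 4.16%.

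Inside the genes, the 39 genes held 2.53 ± 0.148 peaks per gene in S7KO and 2.38 ± 0.348 in WT (mean over genes, SD over n = 3 libraries), a difference of 0.154 that lay within the spread of the WT libraries. Without WT replicate 2 the difference was -0.00855. All protein-coding genes held 3.32 ± 0.179 and 3.15 ± 0.353. The 39 genes were longer, at a median of 36.2 kb against 17.5 kb, and held a median of 6.52 peaks per 100 kb against 8.49. Rec114 held the most, with 12, 12 and 13 peaks in S7KO and 10, 9 and 14 in WT, followed by Hsf2bp with 9, 8 and 8 in S7KO and 7, 6 and 8 in WT and Hfm1 with 5, 6 and 7 in S7KO and 5, 4 and 8 in WT. The lowest WT value at each of these genes was that of WT replicate 2. The Rec114 interval of 170 kb includes the 81147 bp that lie before its RefSeq start. None of the 39 had more gene body peaks in every S7KO library (0.788% of all genes did) or fewer (0.103%).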

How the data were processed

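Per the labels and the study's methods, the authors trimmed reads with Trim Galore (0.6.6), aligned them to mm10 with Bowtie2 (2.4.4.1), kept uniquely mapped non-duplicate reads, removed mitochondrial reads, shifted read ends for the Tn5 cut, selected fragments by length and called broad peaks with MACS2 (2.2.5), 1 list per library. Each deposited list holds, for every peak, its position, a score for display, its fold enrichment over the local background, and p-value and q-value as −log10. The largest q-value was 0.0983. Positions and −log10 q were used, the latter for ranks and a stricter limit within a list only. The authors' differential test (DiffBind, 3.16) needs reads and was not repeated.

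The 39 genes and the comparison lists were chosen with earlier results of these data known. Gene intervals came from RefSeq's GRCm38.p6 table, and strands from its promoter table or, failing that, from the GENCODE gene of the same symbol and chromosome. The promoter peak was the peak nearest the 5′ end, counted within 1 kb, or within 3 kb where stated. A gene body peak overlapped the gene interval by at least 1 bp. Width was tested with limma 3.58.1 in R 4.3.3 after the script had been tested on simulated data. Values per library were given for genes with no or partial promoter peaks, the 5 widest and 5 narrowest peaks, genes whose genotypes did not overlap and the 3 genes with most gene body peaks. Alternatives covered the window, the start used, a stricter q-value, equal numbers of peaks and each library left out.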

Additional observations from a re-analysis of the deposited data

How the results depend on the processing

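The count of 37 genes with a promoter peak in all 6 libraries was 39 within 3 kb, 33 where the peak had to cover the 5′ end, 35 at a −log10 q of at least 3 and 36 with the lists cut to an equal number of peaks. Over all protein-coding genes the shares under these settings were 74.0%, 59.7%, 66.0% and 67.0%, in the same order. The number of genes with no promoter peak in any library was 1, against 27.7% of all genes. It was 0 within 3 kb (21.8% of all genes) and 3 where the peak had to cover the 5′ end (35.1%). With RefSeq starts for the genes that had one, it was 2 (Rad21l and Majin), against 25.7% of all genes. Counted as a position from the top of the list in place of a percent rank, the genes standing higher in every S7KO library were 1 in place of 3, and those standing lower 3 in place of 1. The genotypes' difference of 0 genes was -0.667 with equal numbers of peaks, at means of 36.7 in S7KO and 37.3 in WT, and ranged from -0.333 to 0.333 with 1 library left out. Under each of these settings, 0 of the 39 genes had a promoter peak in every library of one genotype and in none of the other. The gene body difference of 0.154 peaks per gene was -0.0342 with equal numbers of peaks and ranged from -0.00855 to 0.338 with 1 library left out.

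The width fit called 14 genes of all those tested, 1 with the replicate number as a block, 5 when the bp covered within 3 kb replaced the width, and 12 to 42 with 1 library left out (42 without WT replicate 1, 37 without S7KO replicate 4, 27 without WT replicate 4 and 22 without WT replicate 2). Of the 37 meiotic prophase genes it called 0 in each of these fits, Msh5 without WT replicate 4 being the exception. With widths centred per library, the deviations of equally numbered libraries from their genotype means correlated at 0.07, -0.01 and 0.11. Centring removes shifts shared by a whole library, so these values cannot show whether the libraries were prepared in pairs. The cause of the changes in the number of genes called was not tested. Depth is unknown, and how far the smaller list of WT replicate 2 enters the width and gene body values was tested only by leaving it out and by equal numbers of peaks.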
